A study of Homo sapiens with 16 samples.

Results

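Among the most raised genes of BT474 breast cancer xenografts that carried the SHP2 miR2 hairpin were 8 genes of neurons and synapses: CBLN2, VSTM2A, SYT1, PPFIA2, CDH8, GRIK2, UNC5C and PVALB. These 8 of the 18377 genes measured were selected on their values in the SHP2 miR2 tumours, so their level in that group is a description and carries no test. They were read as the transcript clusters annotated to exactly 1 gene symbol, and each of the 8 has a single such cluster on the array. BT474 is a human breast cancer line positive for HER2. Its cells had received a lentiviral vector that doxycycline switches on, carrying CTRL miR, SHP2 miR1 or SHP2 miR2, and were grown orthotopically, in the fat pad of a mammary gland, in mice without a working immune system. SHP2, the product of PTPN11, is a tyrosine phosphatase between receptor tyrosine kinases and the RAS-ERK pathway. Every group, controls included, had doxycycline (2 g per L) in its drinking water over 30 days once tumours had formed, and total RNA of each dissected tumour (100 ng) was read on a human whole-transcript array. CTRL miR had 6 tumours, SHP2 miR1 had 7 and SHP2 miR2 had 3, with 1 array for each tumour. Whether the transduced cells were clones, and whether each tumour came from a separate mouse, is not given in the sources used here, so p-values measure the spread between these tumours. The series compares tumours with and without a knockdown of SHP2.

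Neurons signal at synapses, where vesicles docked at an active zone fuse with the membrane when calcium enters and release transmitter onto receptors across the cleft. Secreted organisers and adhesion molecules hold the 2 membranes in register, and guidance receptors steer the axon on its way there. Several of the 8 genes, though not all, belong to these steps. CBLN2 is a secreted cerebellin of the C1q family that links presynaptic neurexins to postsynaptic delta-type glutamate receptors, and VSTM2A is a secreted protein with an immunoglobulin-like domain. SYT1 is the calcium sensor of synaptic vesicle fusion, and PPFIA2 is liprin-alpha-2, a scaffold of the active zone. CDH8 is a type II classical cadherin of neural circuits. GRIK2 encodes a subunit of kainate-type glutamate receptors, UNC5C is a receptor for the axon guidance cue netrin-1, and PVALB, parvalbumin, is a calcium buffer of fast-spiking inhibitory neurons and of fast skeletal muscle fibres. Many neuronal genes are silenced outside neurons by REST, a repressor that binds the RE1 element.

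The stretches just before the annotated starts of 6 of the genes are given because the members were high together in the same tumours. They come from RefSeq on GRCh38.p14, which lists 14 windows for the 8 genes, and each is the 250 bases before a start, read 5′ to 3′ on the gene's strand. CBLN2 was the gene with the largest difference in SHP2 miR2. SYT1 and PPFIA2 lie near each other on chromosome 12. CDH8 and UNC5C are the members that moved in opposite directions in SHP2 miR1, and the VSTM2A window holds the right-hand part of the RE1 element. The CBLN2 window is chr18:72544343-72544592 (minus strand), the SYT1 window chr12:78864524-78864773 (plus) and the PPFIA2 window chr12:81759351-81759600 (minus). The CDH8 window is chr16:62036439-62036688 (minus), the UNC5C window chr4:95548974-95549223 (minus) and the VSTM2A window chr7:54542125-54542374 (plus). Capitals mark the matches described after them.
CBLN2: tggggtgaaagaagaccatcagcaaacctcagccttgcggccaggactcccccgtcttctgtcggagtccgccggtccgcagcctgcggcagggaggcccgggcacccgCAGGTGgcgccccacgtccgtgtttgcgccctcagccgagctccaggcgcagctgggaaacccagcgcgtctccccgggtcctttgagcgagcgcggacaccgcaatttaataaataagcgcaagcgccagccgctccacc
SYT1: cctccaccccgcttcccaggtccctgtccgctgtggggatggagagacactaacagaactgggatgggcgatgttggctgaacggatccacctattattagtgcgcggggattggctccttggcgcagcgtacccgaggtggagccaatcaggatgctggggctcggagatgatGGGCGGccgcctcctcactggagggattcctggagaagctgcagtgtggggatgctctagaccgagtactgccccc
PPFIA2: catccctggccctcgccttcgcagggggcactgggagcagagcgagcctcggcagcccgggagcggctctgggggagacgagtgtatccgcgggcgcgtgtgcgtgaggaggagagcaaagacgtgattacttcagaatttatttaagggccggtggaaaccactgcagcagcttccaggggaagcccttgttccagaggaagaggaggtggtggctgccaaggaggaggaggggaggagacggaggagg
CDH8: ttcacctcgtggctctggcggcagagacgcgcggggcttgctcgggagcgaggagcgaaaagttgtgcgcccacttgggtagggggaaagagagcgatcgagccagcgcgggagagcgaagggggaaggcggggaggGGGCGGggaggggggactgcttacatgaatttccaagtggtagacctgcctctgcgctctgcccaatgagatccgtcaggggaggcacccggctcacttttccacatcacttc
UNC5C: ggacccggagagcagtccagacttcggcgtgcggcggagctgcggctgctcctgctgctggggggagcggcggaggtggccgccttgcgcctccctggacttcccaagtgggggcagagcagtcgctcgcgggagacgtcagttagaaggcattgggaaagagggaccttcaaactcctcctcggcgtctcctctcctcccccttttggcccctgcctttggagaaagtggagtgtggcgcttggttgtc
VSTM2A: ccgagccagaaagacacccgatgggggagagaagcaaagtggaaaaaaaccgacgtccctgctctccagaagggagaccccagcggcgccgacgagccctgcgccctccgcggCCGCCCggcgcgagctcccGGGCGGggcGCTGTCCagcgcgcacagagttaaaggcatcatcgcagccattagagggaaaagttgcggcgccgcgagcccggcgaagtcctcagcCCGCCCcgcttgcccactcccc

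A set of 8 short motifs was searched on both strands of all 35116 promoter windows of that table, and a window was counted once however often a motif occurred in it. The GC box GGGCGG was in 3 of the 14 windows of the 8 genes (CDH8, SYT1 and VSTM2A), against 42.6% of all windows. The right-hand part of the RE1 element, GGACAGC, was in 2 of the 14 (CDH8 in its other window, and VSTM2A), against 4.76% of all windows, and the left-hand part, TTCAGCACC, was in 0 of the 14 and in 0.288% of all. The E-box CAGGTG was in 1 (CBLN2), against 17.5%, and TATAAA in 1 (another PPFIA2 window), against 10.7%. The E-box CACGTG (6.34% of all windows), the cyclic AMP element TGACGTCA (1.65%) and the palindromic oestrogen response element (0.0399%) were in 0 of the 14. A match here is a string of letters and not a site of binding. No motif of the 8 was found in more than 3 of the members' promoter windows.

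PTPN11, the gene both hairpins target, lay below all controls in each of the 10 knockdown tumours, at 8.23 to 8.61 log2 units in CTRL miR, 6.59 to 7.18 in SHP2 miR1 and 6.34 to 6.53 in SHP2 miR2. All values here are the deposited log2 signals, on which 1 unit is a doubling, and array medians lay between 5.21 and 5.41. The controls fell apart by IRS4, an adaptor of insulin receptor signalling: CTRL miR tumours 1, 3, 4 and 6 had 7.14 to 8.29 and tumours 2 and 5 had 3.16 and 3.77, near the 2.97 to 3.91 of the knockdown tumours. Tumours 2 and 5 are therefore given apart. By the mean of 5 noncoding RNAs the arrays also fell into 2 sets, of 8.19 to 8.39 (CTRL miR 1 to 3, SHP2 miR1 1 to 4) and of 6.81 to 7.21 (all others, with every SHP2 miR2 tumour). The labels give no batch, and the sets were read from expression. The arrays of SHP2 miR2 tumours 1 and 3 had a higher lower quartile (4.01 and 4.04) than the other 14 arrays (3.72 to 3.94).

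The secreted proteins come first. CBLN2 measured 5.42, 5.90, 4.85, 5.37, 5.59 and 5.22 in CTRL miR tumours 1 to 6, a mean of 5.39 ± 0.35 (SD, n = 6). In SHP2 miR1 it ran from 5.09 through a median of 5.31 to 5.56 (5.34 ± 0.19, n = 7), and in SHP2 miR2 it was 8.03, 9.02 and 8.46 (8.51 ± 0.50, n = 3). The SHP2 miR2 tumours were 3.11 above the controls (SE 0.20), an 8.66-fold difference and the highest of all 18377 genes. The gap from the lowest SHP2 miR2 tumour to the highest control was 2.13, and controls 2 and 5 were the highest of the controls. Against controls 2 and 5 alone the SHP2 miR2 difference was 2.76. VSTM2A was 5.34, 5.47, 5.36, 5.74, 6.23 and 5.73 in the controls, 5.31 to 6.23 in SHP2 miR1 with a median of 5.77, and 7.83, 8.30 and 8.08 in SHP2 miR2. Its difference from the controls was 2.42 (SE 0.20), the third highest of all genes, and 2.22 against controls 2 and 5 alone. The highest control, tumour 5, and the highest SHP2 miR1 tumour, tumour 5 of that group, both stood at 6.23, well under the lowest SHP2 miR2 tumour.

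The release machinery was represented by SYT1 and PPFIA2. SYT1 was 5.63, 4.88, 5.58, 5.76, 5.0 and 5.70 in the controls, and tumours 2 and 5 were the lowest. In SHP2 miR1 it was 5.52, 5.87, 6.25, 5.74, 5.45, 6.14 and 6.17, a range that overlapped the controls, and in SHP2 miR2 it was 7.19, 8.57 and 7.61. The SHP2 miR2 difference was 2.37 (SE 0.26) against all controls and 2.85 against controls 2 and 5 alone. The latter is the widest effect of the choice of controls among the 8 genes. PPFIA2 held within 4.56 to 4.98 in the controls (median 4.70), with 4.71 and 4.74 in tumours 2 and 5. It was 4.37 to 5.17 in SHP2 miR1 (median 4.71), and 6.44, 7.69 and 7.20 in SHP2 miR2. Its difference was 2.40 (SE 0.20), and 2.39 against controls 2 and 5.

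The adhesion, receptor and guidance genes were at lower differences. CDH8, the cadherin, was 5.31, 4.64, 4.49, 4.97, 4.41 and 4.50 in the controls, 3.85, 4.27, 4.16, 4.20, 4.17, 4.32 and 4.22 in SHP2 miR1, and 6.36, 6.76 and 6.49 in SHP2 miR2. It is the only member whose 3 groups did not overlap in an order with the controls in the middle. GRIK2, the kainate receptor subunit, was 5.03 to 5.69 in the controls (median 5.33), with 5.69 and 5.41 in tumours 2 and 5. It was 5.44 to 6.04 in SHP2 miR1 (median 5.61) and 7.20, 7.65 and 7.06 in SHP2 miR2. UNC5C, the netrin receptor, was 4.01, 3.91, 4.11, 3.98, 4.15 and 4.23 in the controls, 5.19, 4.64, 4.48, 5.01, 5.06, 4.43 and 4.40 in SHP2 miR1, and 5.68, 6.04 and 5.72 in SHP2 miR2. Its groups did not overlap either, with SHP2 miR1 in the middle. PVALB, the calcium buffer, was 4.60 to 4.93 in the controls (median 4.74), and tumours 2 and 5 were the highest of them, at 4.86 and 4.93. It was 4.78, 5.51, 5.44, 4.70, 4.86, 5.44 and 5.58 in SHP2 miR1, and 6.98, 6.87 and 6.02 in SHP2 miR2. The SHP2 miR2 difference from the controls was 1.82 for CDH8 (SE 0.17), 1.95 for GRIK2 (SE 0.16), 1.75 for UNC5C (SE 0.16) and 1.86 for PVALB (SE 0.21). Against controls 2 and 5 alone it was 2.01 for CDH8, 1.75 for GRIK2, 1.79 for UNC5C and 1.72 for PVALB.

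**Figure D1:**
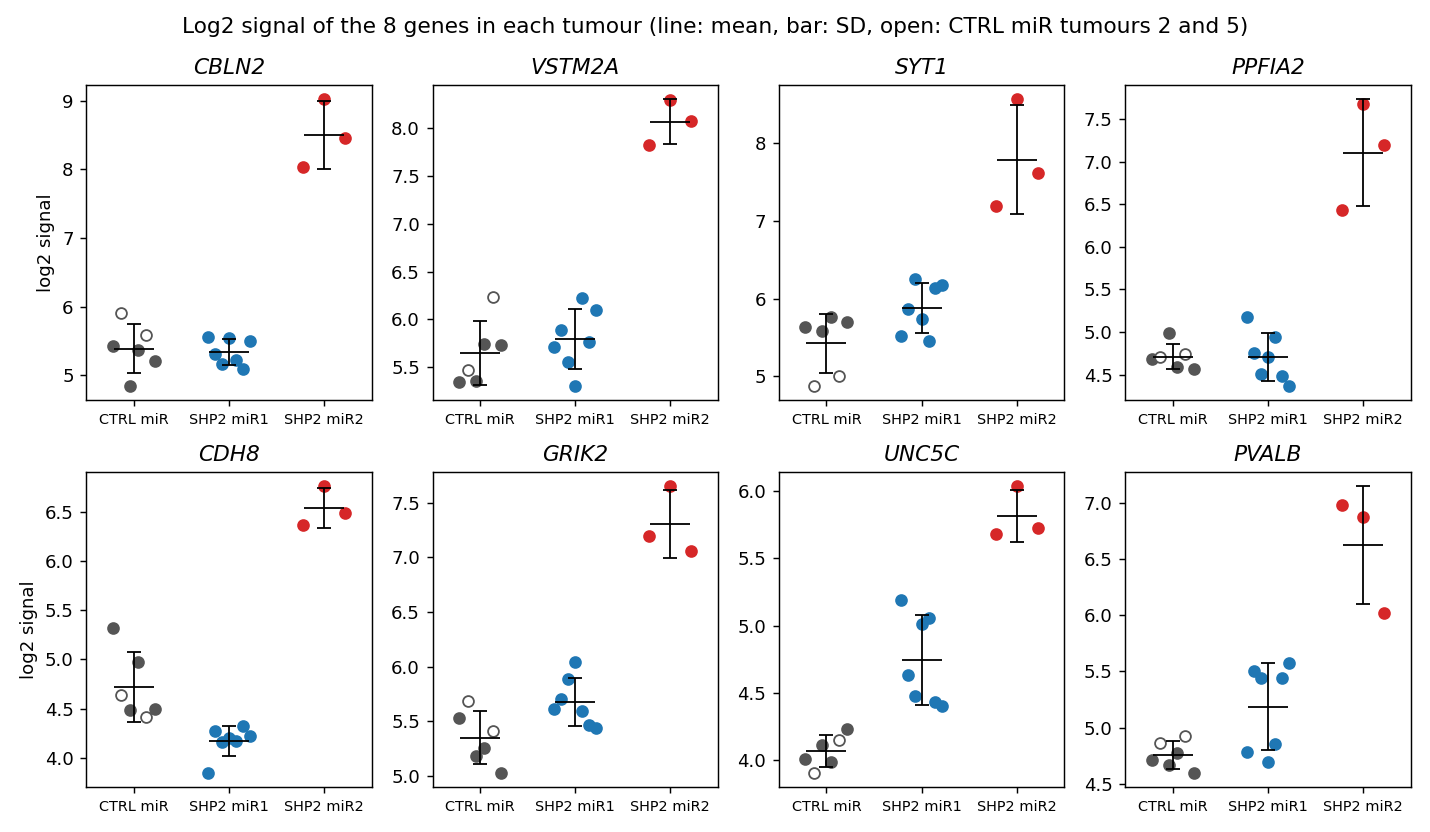
Log2 signal (vertical axis, its range set per gene) of each of the 8 genes in every tumour, by hairpin. Each point is 1 tumour, open points are CTRL miR tumours 2 and 5, and the line and bar are the group mean and SD; in all 8 panels the 3 SHP2 miR2 points lie above every other point.

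All 3 SHP2 miR2 tumours were above every control and every SHP2 miR1 tumour in 8 of 8 genes, as the choice of the genes implies. By this contrast 11.8% of all genes were called higher and 18.2% lower (limma, adjusted p below 0.05), and nothing is read from the members' count. The share of all genes with the groups so separated is not given here. The 8 genes lay among the 19 highest differences of all genes, with UNC5C at the last of those places. The other 11 genes included MME, a membrane peptidase, the mucin MUC19 and the mucin-like OTOGL. Against SHP2 miR1 the SHP2 miR2 tumours were higher by 3.16 for CBLN2, 2.40 for PPFIA2, 2.37 for CDH8, 2.27 for VSTM2A and 1.91 for SYT1. The difference was 1.63 for GRIK2, 1.44 for PVALB and 1.07 for UNC5C. The gap between the groups was narrowest for PVALB (0.44) and UNC5C (0.49).

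The 3 SHP2 miR2 tumours were not alike. Tumour 2 had the highest value in 7 of the 8 genes and tumour 1 the lowest in 6, and PVALB was the gene in which tumour 1 was highest. The mean over the 8 genes was 6.96 in tumour 1, 7.61 in tumour 2 and 7.08 in tumour 3, against 4.90 to 5.08 in the controls and 5.14 to 5.24 in SHP2 miR1. Tumour 2 is also the one whose array did not have the raised lower quartile. After quantile normalization tumour 2 was highest in 6 of the 8 genes and tumour 1 lowest in 6. PTPN11 was at 6.52, 6.53 and 6.34 in these tumours and did not follow that order.

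Whether the other hairpin moved the same genes was tested with SHP2 miR1 against CTRL miR, in which the members were not chosen, although the controls are shared with the contrast that chose them. UNC5C rose by 0.68 (SE 0.13, 95% interval 0.41 to 0.95, limma adjusted p = 0.0103), with all 7 tumours above all 6 controls. CDH8 fell by 0.55 (SE 0.13, 95% interval -0.82 to -0.28, adjusted p = 0.0208), with all 7 tumours below all controls, which is the opposite direction to SHP2 miR2. So 1 of the 8 was called higher and 1 lower, where 1.38% of all genes were called higher and 3.38% lower. How many of all genes had SHP2 miR1 tumours wholly above or wholly below the controls is not given here.

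The other 6 did not pass. SYT1 was 0.45 above the controls (95% interval 0.03 to 0.88, adjusted p = 0.231), PVALB 0.43 (0.08 to 0.77, adjusted p = 0.160) and GRIK2 0.33 (0.06 to 0.59, adjusted p = 0.155). VSTM2A differed by 0.15 (-0.17 to 0.47, adjusted p = 0.701). CBLN2 differed by -0.05 (-0.38 to 0.28, adjusted p = 0.930) and PPFIA2 by -0.0063 (-0.34 to 0.33, adjusted p = 0.993). For CBLN2 and PPFIA2 the upper end of the interval is far under their SHP2 miR2 differences of 3.11 and 2.40. A missed threshold does not show that these genes were unchanged in SHP2 miR1.

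**Figure D2:**
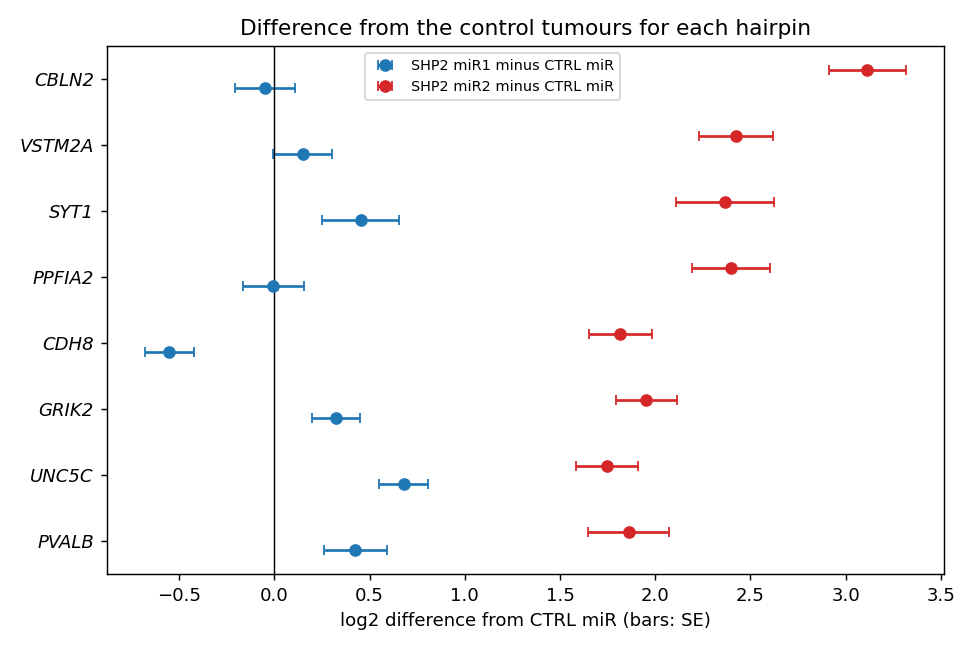
Difference from the CTRL miR mean (horizontal axis, log2 units) for each of the 8 genes, in SHP2 miR1 and in SHP2 miR2, with bars of 1 SE from the fit. The SHP2 miR2 points lie between 1.75 and 3.11 and the SHP2 miR1 points between -0.55 and 0.68, with CDH8 on the negative side.

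The SHP2 miR1 calls changed with the tumours entered. Against controls 2 and 5 alone, where 0.0326% of all genes were called higher and 0.103% lower, 0 of the 8 were called, with UNC5C at 0.72 (limma adjusted p = 0.306) and CDH8 at -0.36 (adjusted p = 0.708). Against controls 1, 3, 4 and 6, UNC5C and CDH8 were called again and GRIK2 was called higher as well (0.43, adjusted p = 0.0271). Without CTRL miR tumour 4, CDH8 was at -0.50 (adjusted p = 0.0658). Within the arrays of CTRL miR 4 to 6 and SHP2 miR1 5 to 7, UNC5C was at 0.51 (adjusted p = 0.359) and CDH8 at -0.39 (adjusted p = 0.460). Within CTRL miR 1 to 3 and SHP2 miR1 1 to 4 they were at 0.82 (adjusted p = 0.191) and -0.69 (adjusted p = 0.216), and with the set as a block at 0.67 (adjusted p = 0.0104) and -0.55 (adjusted p = 0.0222). Both directions held in each of these fits. For SHP2 miR2, within the set that holds all its tumours, the differences from the controls were 3.11 for CBLN2, 2.48 for PPFIA2, 2.31 for SYT1, 2.17 for VSTM2A, 2.07 for GRIK2, 1.91 for CDH8, 1.85 for PVALB and 1.69 for UNC5C.

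Inside SHP2 miR1 the values of PVALB, SYT1 and UNC5C divided the tumours in the same way as skeletal muscle markers did. The mean log2 signal of 27 muscle genes was 4.45 to 4.83 in the controls. It was 4.48, 5.27, 5.0, 4.49, 4.63, 5.32 and 5.12 in SHP2 miR1 tumours 1 to 7, and 5.68, 4.71 and 4.87 in SHP2 miR2 tumours 1 to 3. PVALB is itself a gene of fast muscle fibres and is not in that mean. In SHP2 miR1 tumours 2, 3, 6 and 7, whose muscle mean exceeded that of every control, PVALB was 5.51, 5.44, 5.44 and 5.58. In tumours 1, 4 and 5 it was 4.78, 4.70 and 4.86, inside the range of the controls. SYT1 was 5.87, 6.25, 6.14 and 6.17 in tumours 2, 3, 6 and 7, above every control, and 5.52, 5.74 and 5.45 in tumours 1, 4 and 5, inside the range of the controls. UNC5C ran the other way, at 4.64, 4.48, 4.43 and 4.40 in tumours 2, 3, 6 and 7 and at 5.19, 5.01 and 5.06 in tumours 1, 4 and 5. For CBLN2, VSTM2A, PPFIA2, CDH8 and GRIK2 the values of tumours 2, 3, 6 and 7 overlapped those of tumours 1, 4 and 5. How many of all genes divided these tumours so is not given here. The human probes can also bind RNA of the mouse host. In bulk tumour RNA more cells of a type and more RNA per cell cannot be told apart.

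In SHP2 miR2 the muscle markers were high in tumour 1 and near the controls in the other two. ATP2A1, the calcium pump of fast muscle, was 7.33, 5.20 and 5.42 against 5.02 to 5.32 in the controls, and CKM, muscle creatine kinase, was 6.95, 4.94 and 4.97 against 4.48 to 4.89. PVALB was 6.98, 6.87 and 6.02 in the same tumours, while SYT1 was lowest in tumour 1, at 7.19. Without tumour 1, PVALB in SHP2 miR2 was 1.68 above the controls, and ATP2A1 was 0.14 and CKM 0.24 above them. Of the 27 muscle genes 3 were called higher in SHP2 miR2 (MB, TNNI2 and MYL1) and 0 lower, with a median of 0.41, where 11.8% of all genes were called higher. In SHP2 miR1 0 of 27 were called in either direction by limma, with a median of 0.30. The part of muscle RNA in the PVALB, SYT1 and UNC5C values of SHP2 miR1 was not tested.

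**Figure D3:**
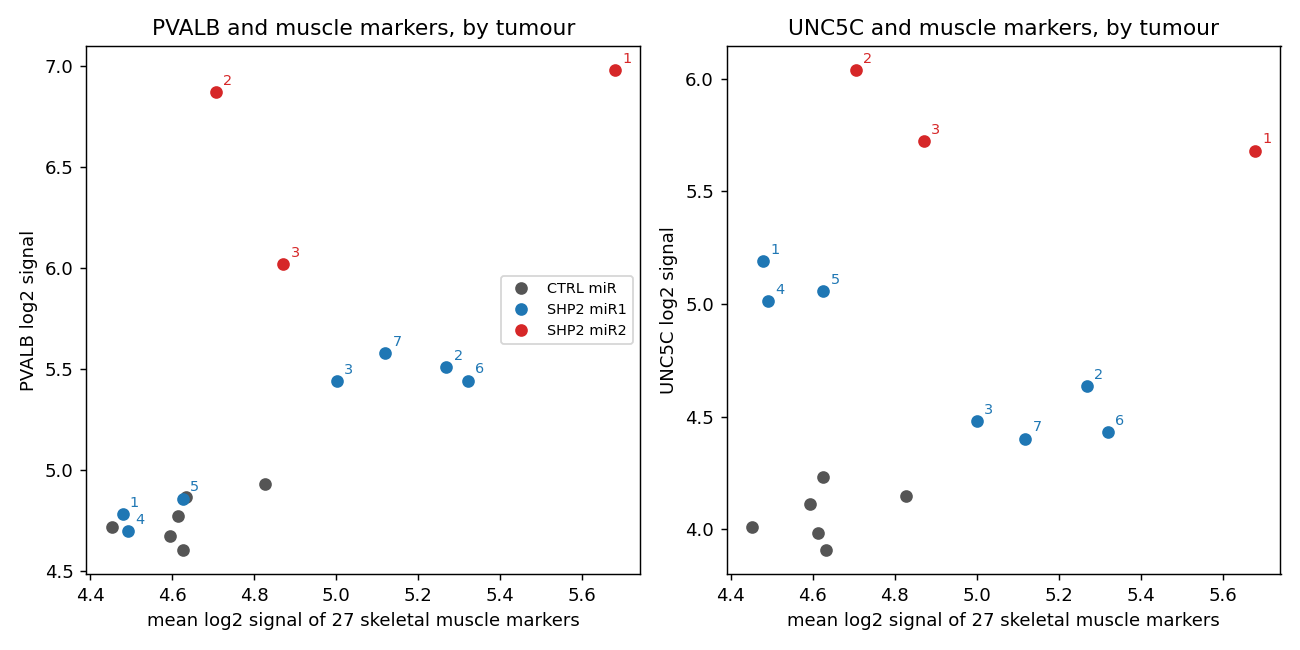
PVALB (left) and UNC5C (right) log2 signal against the mean log2 signal of 27 skeletal muscle markers, 1 point per tumour, with the replicate numbers of the knockdown tumours beside the points. SHP2 miR1 tumours 2, 3, 6 and 7 are high in muscle markers and PVALB and lower in UNC5C than tumours 1, 4 and 5, while SHP2 miR2 tumour 2 is high in both genes with a muscle mean of 4.71.

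The means of neuron markers overlapped between the groups. The mean log2 signal of 25 neuron and neuroendocrine marker genes was 4.35 to 4.69 in the controls, 4.24 to 4.51 in SHP2 miR1 and 4.46 to 4.66 in SHP2 miR2. In SHP2 miR2, 6 of the 25 rose and 6 fell, beside 11.8% and 18.2% of all genes. The counts were 1 and 2 with the array set as a block and 3 and 6 after quantile normalization, where the shares of all genes are not given here. Against controls 2 and 5 they were 1 and 0, beside 1.39% and 2.98% of all genes. CHGA, chromogranin A of secretory granules, rose by 1.40 (SE 0.19, limma adjusted p = 5.88e-05), from 4.20 to 4.85 in the controls to 5.61, 6.17 and 5.89, and INSM1, a neuroendocrine transcription factor, rose by 0.39 (adjusted p = 0.0220). UCHL1, a neuronal ubiquitin hydrolase, fell by 2.08 (adjusted p = 0.00501) and NEFL, the light neurofilament, by 0.86 (adjusted p = 0.0211). Against controls 2 and 5 alone UCHL1 was at -0.32 (adjusted p = 0.185) and NEFL at -0.04 (adjusted p = 0.892), since NEFL was 5.13 to 5.95 in controls 1, 3, 4 and 6 and 4.23 and 4.26 in tumours 2 and 5. SYP and SNAP25, of synaptic vesicles and their fusion, had 4.78 to 5.26 and 4.51 to 4.94 in SHP2 miR2, inside or beside the 4.31 to 5.17 and 4.31 to 5.02 of the controls.

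Markers of glia, only some of which a host nerve could bring, had a mean over 13 genes of 4.62 to 4.80 in the controls. It was 4.54 to 4.74 in SHP2 miR1 and 4.94, 4.71 and 4.98 in SHP2 miR2 tumours 1 to 3. So SHP2 miR2 tumours 1 and 3 stood above every control and tumour 2, in which 7 of the 8 genes were highest, did not. The arrays of tumours 1 and 3 are those with the higher lower quartile. Of the 13 genes 2 were called higher and 0 lower, MOG by 0.43 (limma adjusted p = 0.0164) and MBP by 0.32 (adjusted p = 0.0369), both of myelin, where 11.8% of all genes were called higher. Against controls 2 and 5, and within the set of all SHP2 miR2 arrays, 0 of the 13 were called. The part of host nerve in the values of the 8 genes was not tested. The luminal markers of BT474 had means over 18 genes of 8.52 to 9.18, 9.01 to 9.32 and 8.79 to 8.97 in the 3 groups, and ERBB2 was 10.59 to 11.32 over the 16 tumours. In SHP2 miR2 some of them moved far: PGR, the progesterone receptor, fell by 2.43 (SE 0.18, adjusted p = 3.12e-08), to 6.51, 5.26 and 5.65 from 8.04 to 8.52 in the controls. GATA3, a luminal transcription factor, rose by 1.01 (SE 0.14, adjusted p = 5.42e-05), ESR1, the oestrogen receptor, by 1.11 (SE 0.18, adjusted p = 0.000330) and EPCAM by 0.34 (adjusted p = 0.0470).

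The families of the 8 genes were then followed through 9 lists of neuronal genes, with the members left out. In SHP2 miR2, 48 of the 177 other genes rose and 14 fell, and 115 did not pass, with a median of 0.22 against 0.02 for all genes. Of all genes 11.8% were called higher and 18.2% lower with the deposited values of all 16 tumours. Each list count from that fit in SHP2 miR2 stands beside these shares. For other normalizations, for blocks and with tumours left out, the shares of all genes are not given here. The lists hold many dim genes: 107 of the 177 are among the 6126 genes with the lowest mean signal. Of those 6126 genes 16.1% were called higher, and their median was 0.19, while 33 of the 107 were called higher. After centring arrays on their median 30 rose and 17 fell, and after cyclic loess 25 rose and 15 fell. Without SHP2 miR2 tumour 3 the counts were 20 and 5, without tumour 1 they were 23 and 4, and without CTRL miR tumour 1 they were 28 and 6. Against controls 2 and 5, where 1.39% of all genes were called higher and 2.98% lower, 13 rose and 2 fell. In SHP2 miR1 1 of the 177 rose and 12 fell, beside 1.38% and 3.38% of all genes, and 0 passed in either direction against controls 2 and 5. Whether the higher lower quartile of SHP2 miR2 arrays 1 and 3 has a part in these counts was not tested.

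Beside SYT1, 9 of 30 genes of vesicle release rose and 1 fell. SYT9, another calcium sensor of the family, rose by 0.85 (SE 0.12, limma adjusted p = 7.74e-05), and UNC13B, a priming factor, by 0.72 (SE 0.17, adjusted p = 0.00473). SYT12 rose by 0.53 (adjusted p = 0.00792) and SV2B, a vesicle glycoprotein, by 0.39 (adjusted p = 0.00861). Of these SYT9 also passed against controls 2 and 5 (0.73, adjusted p = 0.00917), and UNC13B did not (0.24, adjusted p = 0.399).

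Beside PPFIA2, 5 of 19 genes of active zone scaffolds and their partners rose and 2 fell. LIN7A and CASK, partners in a scaffold complex of synapses that also binds liprins, rose by 1.32 (SE 0.12, limma adjusted p = 3.54e-07) and 0.67 (SE 0.15, adjusted p = 0.00331), and RIMS1, a vesicle-tethering scaffold, by 0.44 (adjusted p = 0.00345). LIN7C, a close relative of LIN7A, fell by 0.73 (SE 0.15, adjusted p = 0.00142). LIN7A was 6.54 to 7.02 in the controls, 6.69 to 6.95 in SHP2 miR1 and 8.01, 8.26 and 8.05 in SHP2 miR2, with no overlap. Against controls 2 and 5 LIN7A (1.27, adjusted p = 1.37e-05) and RIMS1 (0.54, adjusted p = 0.0273) passed, and CASK (0.39, adjusted p = 0.203) and LIN7C (-0.52, adjusted p = 0.119) did not.

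Beside CBLN2 and VSTM2A, 8 of 24 genes of the list of synapse organisers rose and 1 fell. LRRTM3, a leucine-rich repeat partner of neurexins, rose by 0.77 (SE 0.11, limma adjusted p = 9.28e-05), and the related SLITRK2 and SLITRK1 by 0.47 and 0.45 (adjusted p = 0.0107 and 0.0113). C1QL4, of the same C1q family as CBLN2, rose by 0.52 (adjusted p = 0.0225). LRRTM3 (0.62, adjusted p = 0.0181) and SLITRK1 (0.62, adjusted p = 0.0277) passed against controls 2 and 5. In SHP2 miR1 LRRTM4, NLGN1 and GRID1 fell, by 1.03, 0.73 and 0.37 (adjusted p = 0.0149, 0.0345 and 0.0396). NLGN1 was also the gene of the list that fell in SHP2 miR2, at -0.70 (limma adjusted p = 0.0371).

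Glutamate receptor genes changed in both directions beside GRIK2, with 6 of 16 higher and 2 lower. GRIK3, another kainate receptor subunit, fell by 1.60 (SE 0.22, limma adjusted p = 5.50e-05), and NETO2, an auxiliary subunit of kainate receptors, fell by 1.31 (SE 0.14, adjusted p = 4.03e-06). GRIA2 and GRIA1, of the AMPA type, rose by 0.93 (adjusted p = 0.000104) and 0.49 (adjusted p = 0.00575). GRIK3, NETO2 and GRIA2 passed in the same direction against controls 2 and 5, at -1.79, -1.27 and 0.90 (adjusted p = 0.000353, 0.000482 and 0.00453). In SHP2 miR1 GRIK3 rose by 0.65 (SE 0.17, adjusted p = 0.0341), the only gene of the 9 lists called higher there.

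Among guidance genes beside UNC5C, 6 of 22 rose and 1 fell. ROBO2, a receptor for the repellent SLIT proteins, rose by 1.24 (SE 0.20, limma adjusted p = 0.000324), and DCC, the netrin receptor that UNC5 proteins pair with in repulsion, by 0.53 (SE 0.10, adjusted p = 0.000962). SLIT3 and FLRT2 rose by 0.46 and 0.34 (adjusted p = 0.0124 and 0.0257). ROBO2 was 1.78 above controls 2 and 5 (adjusted p = 1.11e-05), while DCC was 0.38 above them (adjusted p = 0.0908). The gene that fell was SLIT2, by 1.75 (limma adjusted p = 0.0411). In SHP2 miR1 SLIT2 and ROBO1 fell, by 1.92 and 0.95 (adjusted p = 0.0303 and 0.0266). Against controls 2 and 5 limma called 0 of the 22 lower with either hairpin.

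Of the type II cadherins other than CDH8, 3 of 12 rose and 0 fell. CDH18 rose by 1.35 (SE 0.15, limma adjusted p = 7.86e-06), CDH7 by 0.58 (adjusted p = 0.000536) and CDH11 by 0.41 (adjusted p = 0.0102), and CDH18 passed against controls 2 and 5 (1.15, adjusted p = 0.00151). The list of calcium-binding proteins beside PVALB had 2 of 11 genes higher, where 11.8% of all genes were called higher. They were CALB1 (calbindin, 0.39, adjusted p = 0.0311) and RCVRN (recoverin, 0.40, adjusted p = 0.0447). With the array set as a block, after quantile normalization and against controls 2 and 5, 0 of the 11 were called by limma. Of 20 genes of inhibitory neurons 3 rose and 1 fell, beside 11.8% and 18.2% of all genes, with GABRG3, a GABA-A receptor subunit, up by 0.82 (adjusted p = 0.000416) and DLX1, an interneuron transcription factor, down by 0.50 (adjusted p = 0.0263). REST was 7.81 to 8.02 in the controls, 7.80 to 8.02 in SHP2 miR1 and 7.74, 7.76 and 7.56 in SHP2 miR2, a difference of -0.21 (95% interval -0.40 to -0.02, adjusted p = 0.0785). Of 9 genes of REST and its corepressors 2 fell, KDM1A by 0.66 (adjusted p = 0.00642) and HDAC1 by 0.33 (adjusted p = 0.0214), beside 18.2% of all genes. After quantile normalization 2 of the 9 were higher and 1 lower, and against controls 2 and 5 limma called 0.

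**Figure D4:**
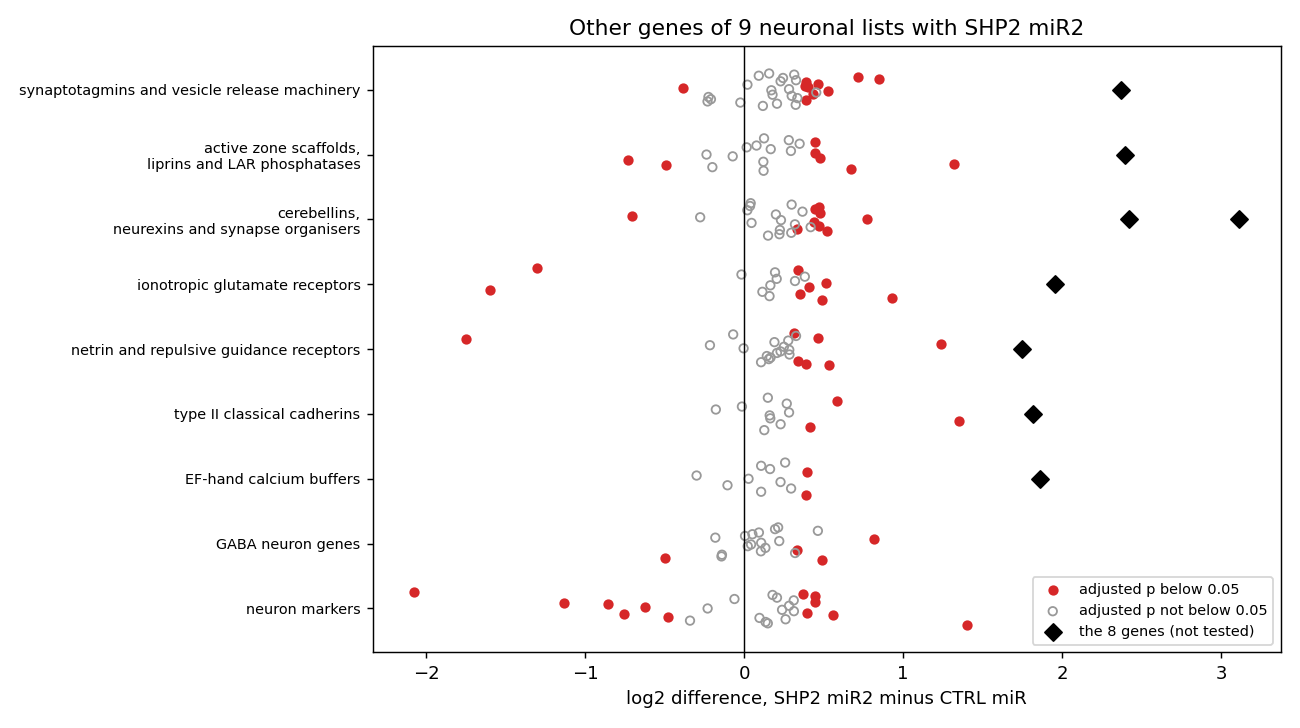
Difference between SHP2 miR2 and CTRL miR (horizontal axis, log2 units) of the measured genes of 9 neuronal lists, 1 row per list and 1 point per gene, with filled points for genes that passed the test and black diamonds for the 8 genes. Most genes lie between -0.5 and 0.5, and the diamonds lie at 1.75 and above, to the right of every other gene of the lists.

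The 8 genes lie on 7 chromosomes, and SYT1 and PPFIA2 share chromosome 12 with 7 measured genes between them. In SHP2 miR2, 3 of those 7 rose and 0 fell, beside 11.8% and 18.2% of all genes. OTOGL, an inner ear glycoprotein of the otogelin family, rose by 2.21 (SE 0.22, limma adjusted p = 1.70e-06), LIN7A by 1.32 and ACSS3, an acyl-CoA synthetase of short chains, by 1.26 (SE 0.15, adjusted p = 1.75e-05). OTOGL was 2.68 to 2.80 in the controls, 2.85 to 3.20 in SHP2 miR1 and 4.03, 5.79 and 5.07 in SHP2 miR2, and ACSS3 was 3.85 to 4.28, 3.92 to 4.24 and then 4.93, 5.82 and 5.12. For both genes the 3 SHP2 miR2 tumours stood clear of all others, and the share of all genes so separated is not given here. The control values of OTOGL lay under the lower quartile of every array (3.72 to 4.04). PAWR and PPP1R12A, next to SYT1, differed by 0.19 and 0.21, and MYF6 and MYF5, muscle transcription factors, by 0.34 and 0.35, none of them past the threshold.

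Outside the stretch NAV3, the neighbour of SYT1 on the other side and a microtubule-binding protein of neurons, rose by 0.82 (SE 0.13, limma adjusted p = 0.000182). Beyond PPFIA2, CCDC59 fell by 0.79 (adjusted p = 0.00877) and TMTC2 rose by 0.47 (adjusted p = 0.0379). OTOGL, LIN7A, ACSS3 and NAV3 also passed against controls 2 and 5, at 2.22, 1.27, 1.31 and 0.63 (adjusted p = 0.000177, 1.37e-05, 0.000366 and 0.0265). CCDC59 and TMTC2 did not (-0.45, adjusted p = 0.347, and 0.38, adjusted p = 0.379). SLC6A15, an amino acid transporter further along, followed the controls: it was 6.57 to 7.37 in tumours 1, 3, 4 and 6, 3.31 and 3.53 in tumours 2 and 5, 3.18 to 3.47 in SHP2 miR1 and 3.79 to 4.18 in SHP2 miR2. In SHP2 miR1 0 of the 7 genes between SYT1 and PPFIA2 were called by limma, with differences from -0.0005 to 0.37, and LIN7A differed by 0.08 (95% interval -0.11 to 0.27).

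**Figure D5:**
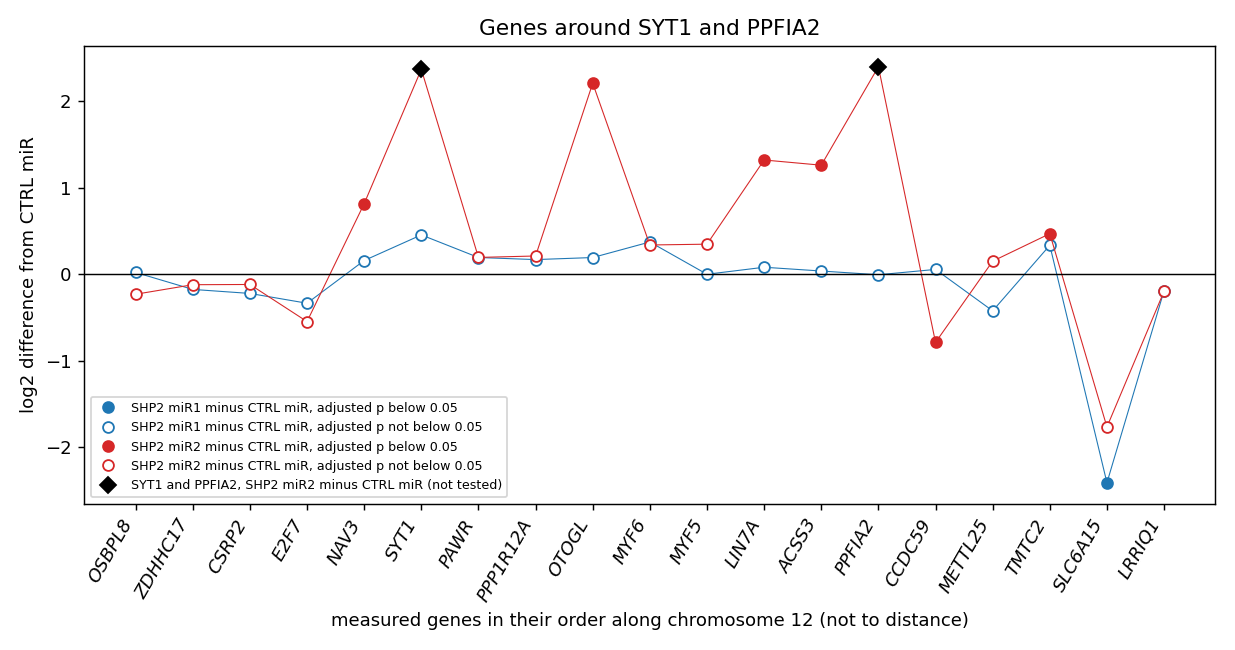
Difference from CTRL miR (vertical axis, log2 units) of SYT1, PPFIA2, the 7 genes between them and 5 genes on either side, in their order along chromosome 12 and not to distance. In SHP2 miR2 the raised genes OTOGL, LIN7A and ACSS3 stand among PAWR, PPP1R12A, MYF6 and MYF5, which lie between 0.19 and 0.35, and in SHP2 miR1 all 7 lie between -0.0005 and 0.37.

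The neighbours of all 8 genes were counted in the same way. Of 77 distinct neighbours (the nearest 5 measured genes on each side, members left out) 13 rose in SHP2 miR2 and 14 fell, beside 11.8% and 18.2% of all genes, with a median of 0.04. Of the 13 that rose, 5 lie around SYT1 and PPFIA2. Near GRIK2, which was higher, 7 of 10 neighbours fell and 0 rose. LIN28B, an RNA-binding protein of stem cells, fell by 1.30 (adjusted p = 0.0225 in limma), POPDC3 by 0.88 (adjusted p = 0.0143) and POPDC1 by 0.61 (adjusted p = 0.0296). Against controls 2 and 5 these were at 0.07, -0.12 and -0.06 (adjusted p = 0.798, 0.742 and 0.873). LIN28B, POPDC3 and POPDC1 were also lower in SHP2 miR1 against all controls, at -1.37, -0.76 and -0.59 (limma adjusted p = 0.0198, 0.0323 and 0.0384). The rest of the 7 were CCNC, ASCC3, PREP and HACE1, at -0.59, -0.48, -0.39 and -0.37 in SHP2 miR2 (adjusted p = 0.0057, 0.0050, 0.0476 and 0.0191). In SHP2 miR1 they were at -0.07, -0.13, 0.18 and -0.24 and did not pass (adjusted p = 0.838, 0.521, 0.449 and 0.142). Their differences from controls 2 and 5 are not given here. CDH11, a cadherin next to CDH8, rose by 0.41, and NETO1, an auxiliary receptor subunit next to CBLN2, by 0.34 (adjusted p = 0.0388). Over all neighbours the count of rises was between 5 (without SHP2 miR2 tumour 3) and 15, and that of falls between 4 (without the same tumour) and 18, when 1 tumour was left out.

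The genes most like each member over the 16 tumours were found by Pearson's r, which rests largely on the step between SHP2 miR2 and the rest. ZNF804A was closest to CBLN2 (r = 0.979), followed by TRERF1 (0.975) and LIN7A (0.973). LRRC7, a scaffold of the postsynaptic density, was closest to VSTM2A (0.961), ITPR1, a calcium release channel, to SYT1 (0.962) and OTOGL to PPFIA2 (0.965). MME was closest to CDH8 (0.966), NPNT, a matrix protein, to GRIK2 (0.986), CEP126 to UNC5C (0.933) and DMD, dystrophin, to PVALB (0.942). Like CDH8, MME had a lower mean in SHP2 miR1 (4.45) than in the controls (5.50) and a higher one in SHP2 miR2 (8.48). CHGA was the next closest to UNC5C (0.920). Among the 28 pairs of members r ran from 0.60 for CDH8 with UNC5C, the genes that moved in opposite directions in SHP2 miR1, to 0.96 for CBLN2 with PPFIA2, with a median of 0.86. These values share the same 16 arrays and are a description.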

How the data were processed

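RNA of 16 BT474 tumours was read on a human whole-transcript Affymetrix array, per the labels. The authors deposited log2 signals, 1 value for each transcript cluster on each array, from 1.54 to 13.63, and the scale was inferred from the values. The submitters' processing notes list R 2.10 and oligo 1.8. How background was corrected and arrays were normalized is not stated.

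Of 28869 clusters, 19310 have 1 gene symbol, 1752 several and 7807 none. Clusters with 1 symbol were used, the cluster with the highest mean for each of 685 genes with several, which left 18377 genes with no filter on low values. The limma package (version 3.58.1, R 4.3.3) was fitted to the 3 groups with lmFit and eBayes (13 residual degrees of freedom) and gave differences, SE and 95% intervals, with p-values adjusted after Benjamini-Hochberg over all genes of a contrast. A gene was called at an adjusted p below 0.05. Groups follow the labels. The number of arrays limits the precision.

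The 8 genes, the lists and the tests were chosen with earlier results of these data known. Members were described without a test where SHP2 miR2 enters. The named genes are the 8, PTPN11, IRS4, ERBB2, MUC19, OTOGL and REST, at most 4 called genes with the smallest adjusted p per list, called neighbours, the 3 genes most like each member, and markers beside a member's values. List genes called in SHP2 miR1 (LRRTM4, NLGN1, GRID1, GRIK3, SLIT2, ROBO1), MME, SYP, SNAP25, SLC6A15 and the genes between SYT1 and PPFIA2 were named after their values were seen. Neighbours came from the order of 18349 matched genes in RefSeq's GRCh38.p14 table, with 28 genes not matched.

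Alternatives comprised other normalizations and filters, array weights, the array set, either control subset and leaving out each tumour. Plots were drawn with matplotlib 3.10.9.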

Additional observations from a re-analysis of the deposited data

Results flagged for a closer look

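CDH8 stood out in SHP2 miR1 tumour 1, at 3.85 log2 units, while the other 6 tumours of that group had 4.16 to 4.32. The gap to the nearest of them was 0.653 of the range of the group. This was 1 of 16 tests of a single tumour against its group, over the 8 genes in CTRL miR and SHP2 miR1, and chance marks about 1 group in 20. Without that tumour CDH8 in SHP2 miR1 was 0.50 below the controls (adjusted p = 0.0468 in limma).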

How the results depend on the processing

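For the 8 genes, the SHP2 miR2 differences kept their sign in every fit in which they had a value. Their mean of 2.21 against CTRL miR ran from 2.08 to 2.34 over the alternatives and from 2.01 to 2.34 with 1 tumour left out, and the mean of 2.03 against SHP2 miR1 from 1.91 to 2.13 and from 1.84 to 2.16. In SHP2 miR1 the counts of 1 called higher and 1 lower became 0 and 0 without the dimmest genes (which removes CDH8 and UNC5C), within either array set and against CTRL miR 2 and 5. With the replicate number as a replicate block 1 was higher and 0 lower (CDH8 at -0.56, adjusted p = 0.0504). Between same-numbered tumours of different groups 12 correlations ran from -0.42 to 0.37. Differently numbered tumours were not correlated for comparison, so whether the replicate numbers pair the tumours is not known. Array weights, and CTRL miR 1, 3, 4 and 6 alone, gave 2 higher, with GRIK2 added (0.38 and 0.43). With 1 tumour left out the lower count was 0 to 1.

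The neighbours called in SHP2 miR2 (13 higher, 14 lower) became 8 higher after median centring, 8 lower after cyclic loess, 3 higher without the dimmest genes, 8 and 6 with only the groups compared, 7 and 4 within the set of all SHP2 miR2 arrays, 5 and 1 against CTRL miR 2 and 5, and 20 higher against CTRL miR 1, 3, 4 and 6. With 1 tumour left out they were 5 to 15 and 4 to 18. The lower counts of rises were 8 without CTRL miR 1, 7 without CTRL miR 3, 8 without CTRL miR 6, 7 without SHP2 miR2 1 and 5 without SHP2 miR2 3. The 48 higher and 14 lower list genes became 30 higher after median centring and 25 higher after cyclic loess. Quantile normalization gave 35 and 16, the set as a block 32 and 7, and the replicate block 60 and 16. Without the dimmest genes they were 15 and 7, with array weights 77 higher, and with only the groups compared 30 and 5. Inside the set of all SHP2 miR2 arrays they were 18 and 5, and against CTRL miR 2 and 5 they were 13 and 2. With 1 tumour left out they were 20 to 68 and 4 to 15. Of these alternatives, the share of all genes called is given only for CTRL miR 2 and 5 as controls. The set of all SHP2 miR2 arrays has 3 tumours per group, and control subsets have fewer controls; for the other changes the cause was not tested.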
